A study of Mus musculus with 4 samples.

Results

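Collagen chain genes were compared between untreated and diethyl maleate (DEM) treated cells of a transformed mouse fibroblast line. A gene was taken as a collagen chain gene when its array name was Col, a number, the letter a and a number with nothing after it. This gave 40 of the 49739 genes and transcripts named on the array, 11 of them fibrillar, 6 of basement membranes, 9 of the FACIT class (fibril-associated collagens with interrupted triple helices) and 14 of other classes. Of these 40 genes, 29 were tested, among 24658 genes and transcripts tested in all. The transcripts include noncoding ones, and shares given below over all genes count them too.

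Collagens are secreted proteins in which 3 chains wind into a triple helix. Fibrillar collagens pack into the tension-bearing fibrils of skin, bone, tendon and cartilage, and fibroblasts are a main source of types I, III and V. Type IV collagen forms the sheet-like network of basement membranes, FACIT collagens sit on the surface of fibrils, and the other classes include beaded filaments, hexagonal networks, anchoring fibrils and transmembrane collagens.

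The cells were C3H10T1/2, a mouse embryo fibroblast line, all carrying the same chemical transformation. They had been given 3-methylcholanthrene (MCA) at 2.5 µg/ml for 2 days and the phorbol ester TPA at 100 ng/ml for 2 weeks, followed by 4 weeks in normal medium. The groups were transformed cells without further treatment (2 samples) and transformed cells given 0.25 mM DEM (2 samples), an electrophile that depletes glutathione. No untransformed cells entered the comparison, and how long the cells were exposed to DEM is not stated in the labels. Nothing in the labels tells whether the 2 samples of a group are separate cultures. The p-values therefore reflect only the spread among these arrays, and this spread may be technical. Whether a lower signal came from fewer cells of a kind or from less RNA per cell cannot be told apart in bulk RNA.

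Levels are log2 processed signals relative to the 75th percentile of the array. They compare arrays for one probe and do not rank one gene's abundance against another's. The 75th percentile was 701 and 747 signal units in untreated cells and 449.9 and 412 with DEM, no spot was saturated, and 47.8% to 52.7% of spots per array were well above background. Correlation across probes was 0.987 within the untreated pair, 0.984 within the DEM pair and 0.964 to 0.968 between groups. Gclm, which encodes a subunit of the enzyme that begins glutathione synthesis and served as a check of exposure, was 11.8-fold higher with DEM (log2 difference 3.56 ± 0.24 SE, limma adjusted p = 0.00103). With 2 arrays per group, the number of arrays limits the precision of every value. The collagen genes spread more between the DEM arrays (SD of the difference 0.856 log2) than between the untreated arrays (0.278). Over all genes these SDs were 0.631 and 0.515.

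Of the 29 collagen chain genes tested, 16 fell with DEM and 1 rose, by limma with a Benjamini-Hochberg adjusted p under 0.05 over all genes tested. Over all 24658 genes, 11.8% fell and 15.5% rose, 27.2% in either direction. Of the collagen genes 24 of 29 had a negative difference, against 40.5% of all genes. Both DEM arrays lay below both untreated arrays for 20 collagen genes (26% of all genes) and above them for 3 (42.4% of all genes). At least 2-fold lower, with bounds in place of fitted values where DEM arrays were at background, were 12 of the collagen genes that fell, against 8.38% of all genes. Falls of 8.77-fold or more were measured for Col11a1, Col6a3, Col6a2 and Col6a1 and were set as lower bounds for Col27a1 and Col8a2. The gene that rose was Col7a1, the chain of anchoring fibrils. The median log2 difference was -0.91 over the collagen genes in the fit, against 0.16 over all genes tested. It was -0.85 over the 28 collagen genes whose size could be given, with 4 of them at their bound, against 0.17 over 24236 such genes. On all 4 arrays well above background were 23 collagen genes, of which 12 fell, 1 rose and 10 did not pass, with a median of -0.72. Another 5 genes, Col19a1, Col27a1, Col8a2, Col23a1 and Col9a3, were well above background on the untreated arrays alone. They passed the filter only through the group where they were higher, and counts over the tested genes carry that selection. Without a filter on dim probes, 18 of all 40 genes fell and 2 rose, where 6.29% of all 49739 genes fell and 34.8% rose. These shares include genes at background, and background lay higher with DEM on this scale. The lowest level well above background was -4.82 and -4.80 untreated and -4.28 and -4.16 with DEM. How far this carries the 34.8% was not tested. With a filter on all 4 arrays, 13 of 23 fell and 1 rose, where 10.5% of 21209 genes fell and 18.1% rose.

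The scaling moved the split of calls over all genes but not the direction of the collagen median. Quantile normalization gave 13.4% lower and 11.8% higher calls over all genes, cyclic loess 14.9% and 10.3%, the percentile over detected probes 14.4% and 10.6%, and spike-in scaling 3.52% and 1.47%. The median of all genes, 0.16 in the values given here, was 0.012 with loess, 0.00492 with the detected percentile and 0.00762 with spike-in scaling. The collagen median differed from that of all genes by -1.07 log2 here and by -1.32 to -0.95 under these scalings and normexp background correction. With spike-in scaling 12 collagen genes fell and Col7a1 did not pass. The 75th percentile relative to the spike-in mean was -2.76 and -3.41 log2 untreated and -2.78 and -3.70 with DEM. Spike-in scaling carried these gaps between arrays of a group into every gene. A call lost under it is therefore not in itself a smaller fall. The collagen median was -1.06 there, against -0.91 in the values given here.

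**Figure D1:**
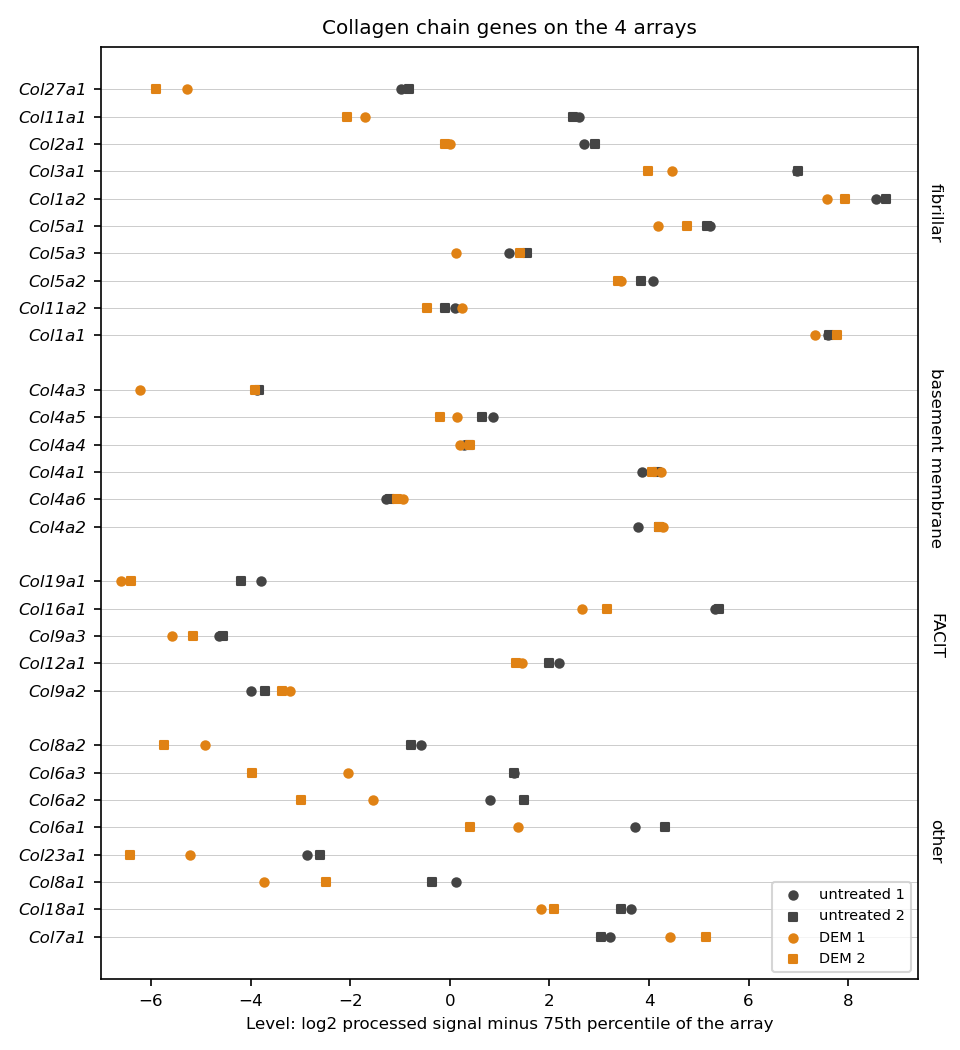
Level of each of the 29 tested collagen chain genes on the 4 arrays (x axis, log2 signal relative to the array's 75th percentile), by class. Grey symbols are untreated and orange symbols DEM arrays, with circles for replicate 1 and squares for replicate 2. The orange symbols lie left of the grey ones for 20 genes, right of them for 3, and mix with them for 6.

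**Figure D2:**
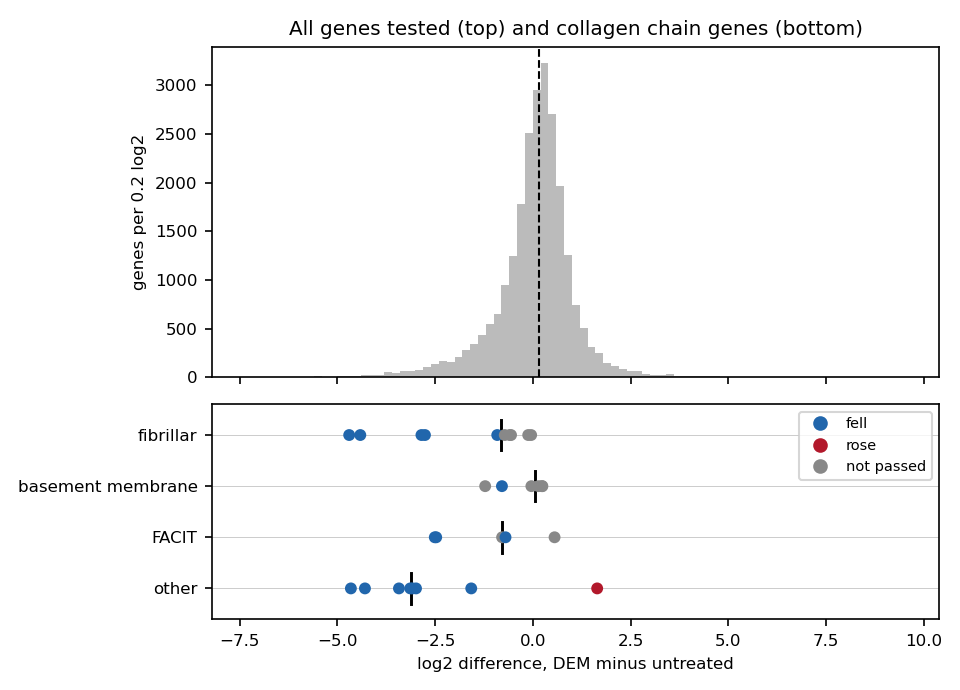
Distribution of log2 differences (DEM minus untreated) over all 24658 genes tested in bins of 0.2 (top, dashed line at the median of 0.16) and the differences of the collagen genes by class (bottom, short black lines at class medians). The basement membrane median lies at 0.06, and that of the other classes at -3.11.

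Sequences upstream of the transcription start are shown for 4 fibrillar genes that fell and for Col7a1, because the values below turn on these genes. Each is the 200 bases before the start in RefSeq (GRCm38.p6), read 5′ to 3′ on the gene's strand (+ in each case), at chr6:4505418-4505617 for Col1a2, chr1:45311338-45311537 for Col3a1, chr3:114030340-114030539 for Col11a1, chr4:63215212-63215411 for Col27a1 and chr9:108953386-108953585 for Col7a1. Capitals mark matches on either strand of CCAAT or its complement ATTGG (the CCAAT box), TATAA or TTATA (the TATA box) and TGACNNNGC or its complement (the core of the antioxidant response element).
Col1a2: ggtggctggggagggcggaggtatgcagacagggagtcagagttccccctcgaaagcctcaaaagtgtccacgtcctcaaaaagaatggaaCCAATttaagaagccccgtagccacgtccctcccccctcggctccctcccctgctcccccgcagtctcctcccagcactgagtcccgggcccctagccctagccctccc
Col3a1: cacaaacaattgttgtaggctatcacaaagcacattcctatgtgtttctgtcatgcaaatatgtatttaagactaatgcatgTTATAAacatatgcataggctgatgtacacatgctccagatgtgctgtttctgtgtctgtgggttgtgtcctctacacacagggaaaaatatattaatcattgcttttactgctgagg
Col11a1: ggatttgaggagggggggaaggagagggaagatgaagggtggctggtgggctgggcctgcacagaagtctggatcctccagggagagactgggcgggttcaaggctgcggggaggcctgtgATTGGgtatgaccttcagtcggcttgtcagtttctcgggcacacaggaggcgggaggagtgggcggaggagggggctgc
Col27a1: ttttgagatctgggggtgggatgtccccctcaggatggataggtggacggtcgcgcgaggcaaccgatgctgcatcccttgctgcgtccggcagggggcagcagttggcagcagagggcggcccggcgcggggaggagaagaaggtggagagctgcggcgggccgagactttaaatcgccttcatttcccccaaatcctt
Col7a1: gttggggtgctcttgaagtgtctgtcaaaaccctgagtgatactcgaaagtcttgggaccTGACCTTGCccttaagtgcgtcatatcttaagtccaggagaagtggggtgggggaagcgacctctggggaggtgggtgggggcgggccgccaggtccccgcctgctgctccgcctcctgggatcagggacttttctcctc

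Windows were found for 32 of the 40 genes, 35 windows in all since some genes have several starts. Both strands were searched for 5 motifs, and the shares of windows holding one were set beside those over all 32851 windows of the table. CCAAT was in 28.6% of the collagen windows and 29.3% of all, and TATAA in 17.1% and 18.5%. The GC box GGGCGG was in 54.3% of the collagen windows and 31.0% of all. It was in 11 of the 16 windows of genes that fell, 6 of the 8 of genes that did not pass, and 1 of the 10 of genes that were not tested. TGACNNNGC was in 14.3% of the collagen windows (5 of 35) and 8.60% of all. It was in the window of Col7a1, 1 of 16 of genes that fell and 2 of 8 of genes that did not pass. The AP-1 motif TGANTCA was in 1 collagen window (2.86%, against 5.48% of all). A match of letters is no evidence of binding, and a window without a match says nothing beyond these bases.

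Of the 10 fibrillar chains tested, 5 fell and 5 did not pass, with a median of -0.81. All 10 differences were negative, against 40.5% of all genes, though some of their intervals include 0. The number that fell depends on the processing. It was 7 with normexp, quantile, loess, the detected percentile or a replicate block, and 4 with spike-in scaling. Over all genes 11.8% fell. Col11a1, a minor chain that sets the diameter of cartilage-type fibrils, was at 2.59 and 2.47 on the untreated arrays and at -1.70 and -2.06 with DEM. It fell by 4.41 ± 0.21 on the log2 scale, 21.3-fold (limma adjusted p = 0.00065). Col2a1, the main collagen of cartilage, was at 2.69 and 2.92 untreated and at -0.00 and -0.09 with DEM, and was 7.20-fold lower (log2 difference -2.85 ± 0.19, limma adjusted p = 0.000985). For both genes the lower untreated array lay more than 2 log2 units above the higher DEM array.

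Col3a1, which encodes type III collagen of skin and vessels, was at 6.97 and 6.99 untreated and at 4.46 and 3.98 with DEM. The fall of 2.76 ± 0.20 on the log2 scale was 6.76-fold (limma adjusted p = 0.0011). Col27a1, a fibrillar chain of developing cartilage, was at -0.97 and -0.81 untreated and at -5.27 and -5.90 with DEM, where neither array was well above background. Its signal was therefore at least 10.04-fold lower with DEM (limma adjusted p = 0.00103). This bound, like those below, holds for the processing used here. It sets the untreated mean against the lowest signal well above background on each DEM array. Col1a2, the alpha2 chain of type I collagen, was at 8.57 and 8.75 untreated and at 7.57 and 7.93 with DEM, 1.88-fold lower (log2 difference -0.91 ± 0.17, limma adjusted p = 0.0138). In each of these genes the untreated and DEM arrays did not overlap, but the Col1a2 call was lost with spike-in scaling (adjusted p = 0.571) and without either untreated array (0.075 and 0.118).

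Type V collagen, which starts and limits the growth of type I fibrils, did not pass. Col5a1 was at 5.22 and 5.16 untreated and at 4.18 and 4.76 with DEM (log2 difference -0.72, 95% interval -1.26 to -0.17, limma adjusted p = 0.0605). Col5a2, the neighbour of Col3a1 on the chromosome, was at 4.08 and 3.84 untreated and at 3.43 and 3.38 with DEM (-0.56, interval -0.97 to -0.14, limma adjusted p = 0.0582). The arrays of the groups did not overlap for Col5a1 or Col5a2, and of 15 alternatives Col5a1 passed in 7 and Col5a2 in 6, each time lower with DEM. Col5a3 was at 1.18 and 1.54 untreated and at 0.13 and 1.42 with DEM (-0.59, interval -1.62 to 0.44). Col11a2, a partner chain of Col11a1, was at 0.10 and -0.09 untreated and at 0.24 and -0.46 with DEM (-0.12, interval -0.80 to 0.57). The groups overlapped for Col5a3 and for Col11a2, and without DEM replicate 2 the Col5a3 difference was -1.23 and passed (adjusted p = 0.00881). Col24a1, a fibrillar chain, was well above background on 1 DEM array and no untreated array and was not tested.

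Col1a1, the alpha1 chain that makes up most of type I collagen, was read differently by its probes. Its brightest probe, which stood for the gene, read 7.60 and 7.61 untreated and 7.34 and 7.78 with DEM (log2 difference -0.04 ± 0.18, interval -0.48 to 0.39, limma adjusted p = 0.88). The processed signals of that probe were 136020 and 145621 untreated and 73045 and 90664 with DEM, with no saturation mark. The other kept probes were lower with DEM. The probe P377094 read 5.79 and 6.21 untreated and 4.18 and 4.49 with DEM, a difference of -1.66 ± 0.21 (limma adjusted p = 0.0043 over 31771 probes). The probe P658611 read -0.56 and -0.06 untreated and -2.45 and -1.24 with DEM (-1.54 ± 0.43, limma adjusted p = 0.0434 over the same probes). With the mean of the 3 probes Col1a1 was at -1.08 and passed (adjusted p = 0.0303), so its result depends on the probe. The sequences of both lower probes, on chromosome 11, are given as the array file lists them in lower case.
Col1a1 P377094: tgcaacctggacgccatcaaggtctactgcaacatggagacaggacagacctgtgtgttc
Col1a1 P658611: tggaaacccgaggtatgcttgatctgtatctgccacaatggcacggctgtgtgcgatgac

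Several kept probes were present for 11 collagen genes, and for 7 of them several were well above background on all 4 arrays. In all 7 these probes had the same sign of difference. For Col1a1 that sign is not settled, since its brightest probe read -0.04 with an interval of -0.48 to 0.39. The gap between the largest and smallest difference of a gene had a median of 0.21 log2, against 0.28 over the 4861 genes with several such probes. The gap for Col1a1 was 1.62, the widest of the 7, and 1.93% of those 4861 genes had a larger one. For Col2a1 the probes read -2.85 and -1.39. The other kept probe of Col16a1 was well above background on 3 arrays and read -4.70 and -3.85 untreated and -6.55 and -3.12 with DEM, so its DEM arrays lay on either side of the untreated ones. The kept probes of Col27a1 and Col23a1 and the other kept probe of Col3a1 were well above background on the untreated arrays alone, so their agreement cannot be read.

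**Figure D3:**
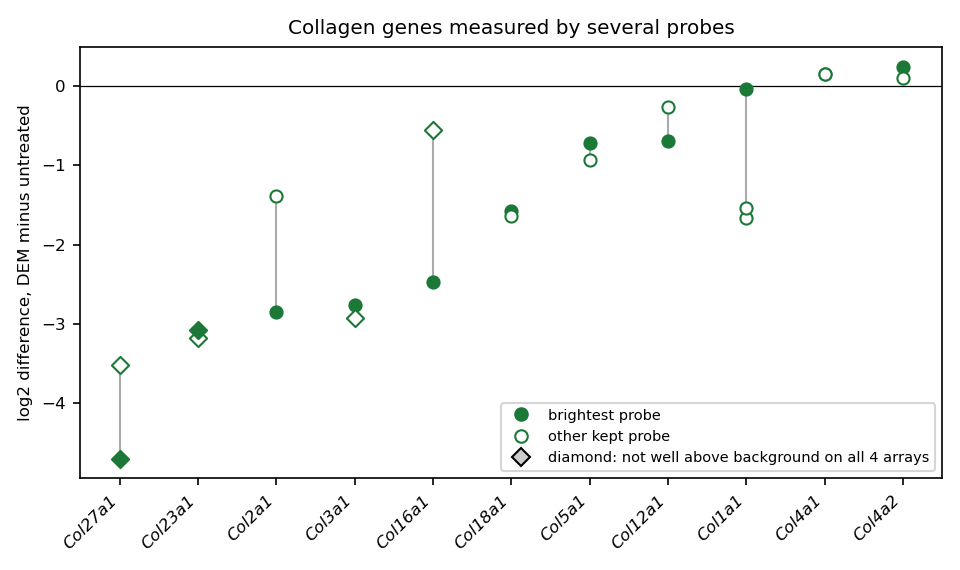
Log2 difference (DEM minus untreated, y axis) of each kept probe for the 11 collagen genes with several kept probes. Filled symbols are the brightest probe, open symbols the others, and lines join probes of a gene. Diamonds are probes not well above background on all 4 arrays, whose differences are no sizes of change. Among genes with circles alone, Col1a1 has the widest gap, 1.62 log2.

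Of the 6 basement membrane chains, 1 fell and 5 did not pass, for a class median of 0.06, beside 11.8% lower over all genes. Col4a1 and Col4a2 encode the paired chains of the ubiquitous type IV network and share a promoter region. Col4a1 was at 3.86 and 4.15 untreated and at 4.24 and 4.06 with DEM (log2 difference 0.15, interval -0.29 to 0.59, limma adjusted p = 0.581). Col4a2 was at 3.79 and 4.19 untreated and at 4.28 and 4.19 with DEM (0.25, interval -0.23 to 0.72, limma adjusted p = 0.381). The untreated and DEM arrays overlapped for both genes.

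The other type IV chains are known from specialised basement membranes such as that of the kidney glomerulus. Col4a5 was at 0.87 and 0.65 untreated and at 0.15 and -0.20 with DEM, without overlap, and was 1.73-fold lower (-0.79 ± 0.22, limma adjusted p = 0.0434). That call was lost with spike-in scaling (adjusted p = 0.879), without a variance trend (0.0629), and without either untreated array or DEM replicate 2 (0.253, 0.159 and 0.0691). Col4a4 was at 0.28 and 0.39 untreated and at 0.20 and 0.40 with DEM (-0.04, interval -0.51 to 0.44). Col4a6 was at -1.27 and -1.20 untreated and at -0.93 and -1.07 with DEM (0.24, interval -0.27 to 0.74). Col4a3 was at -3.86 and -3.82 untreated and at -6.21 and -3.91 with DEM, where 1 of the 2 arrays was well above background (-1.22, interval -3.03 to 0.59). Without DEM replicate 2 the Col4a3 difference was -2.37 and passed (adjusted p = 0.00507), so 1 array decides it. The groups overlapped for Col4a4, lay apart by little for Col4a6, and for Col4a3 the higher DEM array nearly reached the untreated ones.

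**Figure D4:**
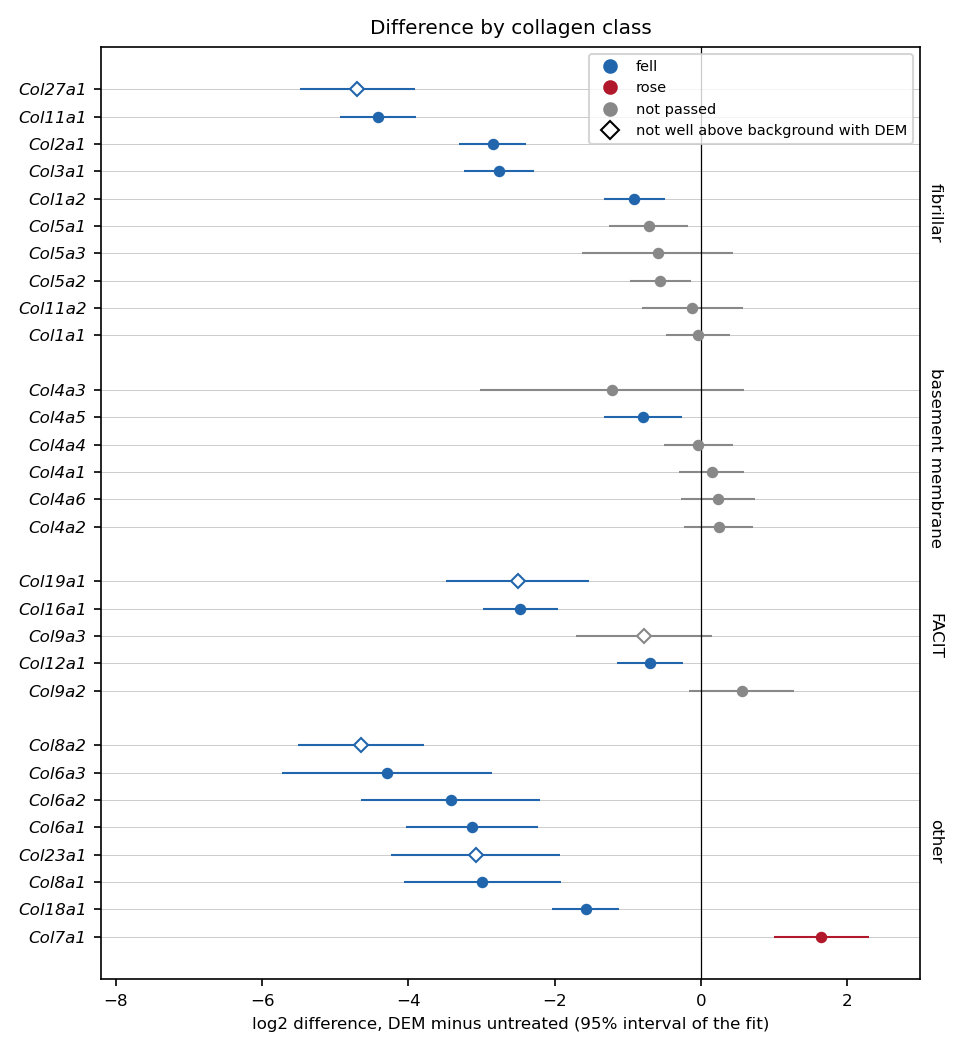
Log2 difference (DEM minus untreated, x axis) of the 29 tested collagen genes with the 95% interval of the fit, by class. Blue marks genes that fell, red the gene that rose, grey those that did not pass, and open diamonds genes not well above background on either DEM array, whose fitted differences are no sizes of change. The intervals of 5 of the 6 basement membrane genes include 0, and that of Col7a1 runs from 1.00 to 2.29.

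Of the 9 FACIT genes, 5 were tested and 3 of them fell (median -0.46 over the 4 whose size could be given, with Col19a1 at its bound). Over all genes 11.8% fell, and Col19a1 and Col9a3 passed the filter through the untreated arrays alone. Col16a1, found near fibrils in skin and cartilage, was at 5.33 and 5.40 untreated and at 2.65 and 3.15 with DEM, 5.54-fold lower (log2 difference -2.47 ± 0.21, limma adjusted p = 0.00159). With the mean of its 2 kept probes the difference was -1.51 and did not pass (adjusted p = 0.123). Col12a1, which lies along type I fibrils, was at 2.19 and 1.99 untreated and at 1.45 and 1.32 with DEM, 1.62-fold lower (-0.70 ± 0.18, limma adjusted p = 0.038). The Col12a1 call was lost in 6 of 15 alternatives, with spike-in scaling (adjusted p = 0.95), without a variance trend (0.0617), with the mean of kept probes (0.0993), and without DEM replicate 2 (0.0565) or either untreated array (0.236 and 0.148). The groups did not overlap for Col16a1 or Col12a1.

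Col19a1, a rare FACIT chain, was at -3.80 and -4.20 untreated and at -6.60 and -6.41 with DEM, where it was not well above background. It was at least 1.17-fold lower (limma adjusted p = 0.00883), and with normexp background correction it did not pass (adjusted p = 0.85). Its call was also lost without untreated replicate 1 (0.088) or 2 (0.0663). Of the type IX chains of cartilage, Col9a3 was at -4.63 and -4.55 untreated and at -5.58 and -5.17 with DEM, where it was not well above background, and no size can be given for it. Col9a2 was at -3.99 and -3.70 untreated and at -3.21 and -3.36 with DEM (0.56, interval -0.16 to 1.28). Neither passed, and with normexp correction Col9a2 was higher (adjusted p = 0.0147). Col9a1, Col14a1, Col20a1 and Col22a1 were well above background on none of the 4 arrays and were not tested.

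Of the 14 genes of the other classes 8 were tested. All 8 passed, 7 lower and Col7a1 higher, with a median of -3.11 (-3.06 with bounds). Over all genes 11.8% fell and 15.5% rose. Of the 7, Col8a2 and Col23a1 passed the filter through the untreated arrays alone. The 3 type VI chains, which assemble together into beaded filaments around cells, were all lower with DEM. Col6a1 was at 3.71 and 4.33 untreated and at 1.37 and 0.40 with DEM, 8.77-fold lower (log2 difference -3.13 ± 0.37, limma adjusted p = 0.0038). Col6a2 was at 0.82 and 1.50 untreated and at -1.54 and -2.99 with DEM, 10.7-fold lower (-3.42 ± 0.50, limma adjusted p = 0.00685). Col6a3 was at 1.29 on both untreated arrays and at -2.05 and -3.97 with DEM, 19.6-fold lower (-4.29 ± 0.59, limma adjusted p = 0.00567). In all 3 genes DEM replicate 2 was the lower DEM array, and no DEM array reached an untreated one. The Col6a2 call was lost without untreated replicate 2 (adjusted p = 0.0559). Col6a4, listed on the array under an older name and so outside the 40 genes, was at 0.08 and 0.18 untreated and at -0.73 and 0.04 with DEM. Its other probe, well above background on 3 arrays, read -4.58 and -3.98 untreated and -2.93 and -4.25 with DEM. Col26a1 and Col6a6, also under older names, were well above background on no array.

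Type VIII collagen forms hexagonal networks under endothelia. Col8a2 was at -0.59 and -0.77 untreated and at -4.92 and -5.75 with DEM, where it was not well above background, and was at least 11.6-fold lower (limma adjusted p = 0.00123). Col8a1 was at 0.12 and -0.37 untreated and at -3.72 and -2.49 with DEM, 7.93-fold lower (log2 difference -2.99 ± 0.44, limma adjusted p = 0.00685). The Col8a1 call was lost without untreated replicate 1 (adjusted p = 0.0563).

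Col18a1, a basement-membrane-associated multiplexin whose end fragment is endostatin, was at 3.64 and 3.43 untreated and at 1.84 and 2.09 with DEM, 2.98-fold lower (-1.57 ± 0.19, limma adjusted p = 0.00383). It did not pass with spike-in scaling (adjusted p = 0.197). Col23a1, a transmembrane collagen, was at -2.87 and -2.62 untreated and at -5.23 and -6.42 with DEM, where it was not well above background. It was at least 2.78-fold lower (limma adjusted p = 0.00785). With normexp background correction Col23a1, Col27a1 and Col8a2 still passed. The Col23a1 call was lost without untreated replicate 1 (adjusted p = 0.0565) or 2 (0.0726).

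Col7a1, which anchors the epidermal basement membrane to the dermis, was the only tested collagen gene that rose. It was at 3.22 and 3.04 untreated and at 4.42 and 5.14 with DEM, so both DEM arrays lay above both untreated arrays. The rise was 3.13-fold (log2 difference 1.65 ± 0.26, limma adjusted p = 0.00891). The difference ranged from 1.28 to 2.01 over 15 alternatives. The call was lost with spike-in scaling (adjusted p = 0.318) and without untreated replicate 1 (0.0511) or 2 (0.0689).

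The remaining genes, Col10a1, Col13a1, Col15a1, Col17a1, Col25a1 and Col28a1, were well above background on none of the arrays. With no filter on dim probes, limma called Col14a1 lower (log2 difference -1.18, adjusted p = 0.0153) and Col15a1 higher (1.61, adjusted p = 0.0282), but neither had an array well above background, so no level can be read for them. Col11a1, Col2a1, Col3a1, Col27a1, Col8a2, Col6a1 and Col6a3 passed in the same direction in every alternative in which they were tested.

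Genes that modify, secrete, process, bind or degrade collagen, and genes of TGF-beta signalling, were read from 6 lists. Of 17 tested genes of modification and folding, 4 fell and 13 did not pass (median -0.29), where 11.8% of all genes fell and 15.5% rose. P3h2, a prolyl 3-hydroxylase, was at -2.41 and -2.49 untreated and at -4.65 on both DEM arrays, not well above background, and was at least 3.42-fold lower (limma adjusted p = 0.00462). P3h4, part of a lysyl hydroxylation complex in the endoplasmic reticulum, was 2.51-fold lower (adjusted p = 0.00444), P3h3 fell by 0.78 ± 0.17 on the log2 scale (0.0203) and Fkbp14, a prolyl isomerase, fell by 0.88 ± 0.19 (0.0206), by the same limma fit. Serpinh1, the collagen chaperone HSP47, was at 6.74 and 6.34 untreated and at 7.23 and 7.04 with DEM and did not pass (0.60 ± 0.18, limma adjusted p = 0.0591). The prolyl 4-hydroxylase subunits P4ha1 (0.64 ± 0.30) and P4ha2 (0.43 ± 0.15) and the lysyl hydroxylase Plod2 (-0.18 ± 0.20) did not pass either.

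Of 10 secretion genes, 1 rose and 1 fell (median -0.04), shares no higher than the 15.5% and 11.8% over all genes. Mia2, a cargo receptor gene at endoplasmic reticulum exit sites, was 1.84-fold higher (limma adjusted p = 0.02). Creb3l1, which encodes a transcription factor of collagen genes in bone, was at -0.90 and -0.43 untreated and at -1.78 and -2.19 with DEM, 2.49-fold lower (limma adjusted p = 0.0187).

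Of 11 tested genes of propeptide cleavage and crosslinking, 5 fell and 6 did not pass (median -0.90), beside 11.8% lower over all genes. Lox, the lysyl oxidase that starts crosslinks between chains, was at 4.46 and 4.27 untreated and at 2.86 and 2.27 with DEM, 3.48-fold lower (limma adjusted p = 0.00519). Its relatives Loxl1 (2.07-fold, 0.00706) and Loxl4 (3.09-fold, 0.0247), the propeptide cleavage enhancer Pcolce (2.07-fold, 0.0068) and the N-propeptidase Adamts2 (1.92-fold, 0.0125) also fell, with limma adjusted p-values in parentheses. Bmp1, the C-propeptidase, did not pass (-0.43 ± 0.18, limma adjusted p = 0.129).

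Of 7 tested collagen receptor genes, 2 fell and 5 did not pass (median -0.14), beside the same 11.8%. Itga11, the fibroblast integrin subunit for fibrillar collagen, was at 1.35 and 0.88 untreated and at -4.25 and -4.46 with DEM, not well above background, and was at least 39.9-fold lower (limma adjusted p = 0.00065). Itga1, another collagen-binding integrin subunit, was 4.53-fold lower (limma adjusted p = 0.0114), a call lost with the mean of its kept probes (-0.66, adjusted p = 0.0891). The receptor kinase gene Ddr2 did not pass (0.28 ± 0.25).

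Of 5 tested degradation genes, 1 rose and 1 fell (median -0.25), beside 15.5% and 11.8% over all genes. The gelatinase gene Mmp2 was 2.48-fold lower (limma adjusted p = 0.00791) and the lysosomal protease gene Ctsl 2.10-fold higher (0.00432). The membrane collagenase gene Mmp14 did not pass (-0.25 ± 0.16), and the collagenase gene Mmp13 was not tested, being well above background on fewer than 2 arrays.

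Of 17 TGF-beta signalling genes, 3 fell and 14 did not pass (median -0.07), a share close to the 11.8% of all genes that fell. The ligand gene Tgfb2 was at 2.05 and 1.71 untreated and at -0.74 and -0.65 with DEM, 5.97-fold lower (limma adjusted p = 0.00142), and Tgfb3 was 2.02-fold lower (0.0255). Ltbp2, a matrix protein of the latent TGF-beta binding family, was at 4.11 and 3.97 untreated and at 0.87 and 0.02 with DEM, 12.1-fold lower (limma adjusted p = 0.00154). Tgfb1 did not pass (0.55 ± 0.21, limma adjusted p = 0.11). Over the 67 tested genes of the 6 lists together 16 fell (23.9%, against 11.8% of all genes) and 2 rose (2.99%, against 15.5%). With spike-in scaling 4 fell, where 3.52% of all genes did, and the 2 that rose did not pass. Without untreated replicate 1 or 2 these lists held 7 and 4 genes that fell, and Itga11, Ltbp2 and Tgfb2 were among them each time.

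**Figure D5:**
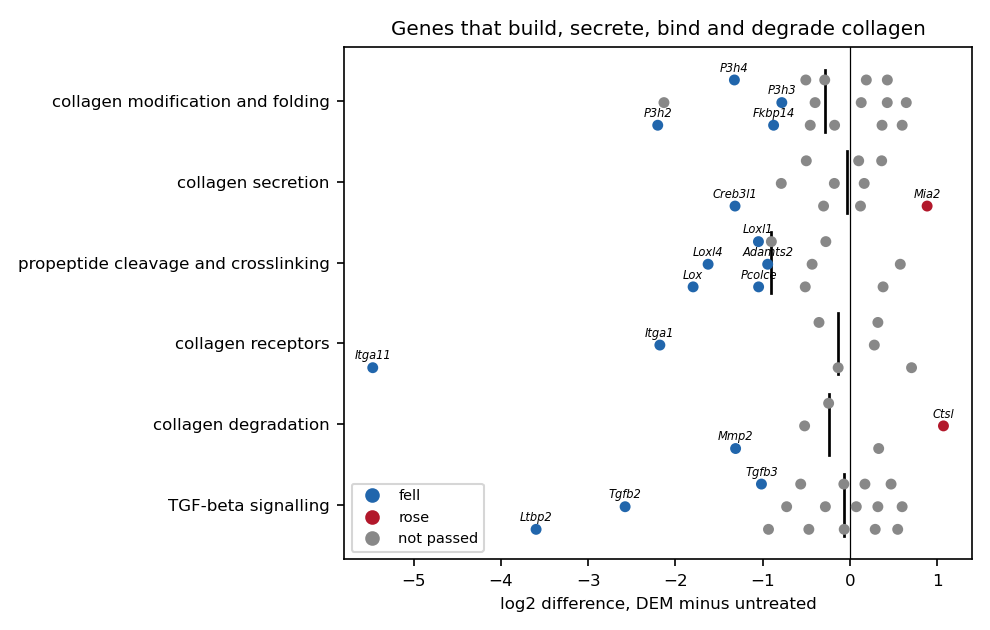
Log2 difference (DEM minus untreated, x axis) of the tested genes of the 6 lists of collagen modification, secretion, cleavage and crosslinking, receptors, degradation and TGF-beta signalling. Blue marks genes that fell, red those that rose and grey those that did not pass, and Itga11 lies farthest left.

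Markers of the cells were read beside the collagen values, where 11.8% of all genes tested fell and 15.5% rose. Lum, Fap, Comp, Bglap, Alpl and Tek were well above background on the untreated arrays alone. Those markers passed the filter only through the group where they were higher. All 8 fibroblast markers were tested. Each was well above background on both untreated arrays. The growth factor receptor genes Pdgfra (2.52-fold) and Pdgfrb (3.51-fold), the matrix proteoglycan genes Dcn (8.62-fold) and Lum (at least 1.49-fold) and the surface protease gene Fap (at least 12.8-fold) fell by limma, while Thy1 (log2 difference 0.23), S100a4 (-0.54) and Vim (-0.28) did not pass. The log2 of their summed signal was 9.74 on both untreated arrays and 8.87 and 9.59 with DEM. It is carried by the S100a4 probe (9.18 and 9.21 untreated, 8.12 and 9.19 with DEM) and so does not show the 5 markers that fell. Of the smooth muscle markers 4 of 5 were tested. Acta2 (11.1-fold), Tagln (3.13-fold) and Des (4.15-fold) fell by limma and Myh11 did not pass, while Cnn1 was well above background on 1 array. Their summed levels of 8.17 and 8.36 untreated and 4.94 and 5.06 with DEM are carried by the Acta2 probe (8.09 and 8.26 untreated, 4.61 and 4.79 with DEM). Of 5 chondrocyte markers, listed because Col2a1, Col9a2, Col9a3 and Col11a1 are cartilage chains, 2 were tested. Comp was at least 5.60-fold lower with DEM (limma adjusted p = 0.00129) and Sox9 did not pass (-1.45 ± 0.49). Acan was well above background on 1 array and Matn3 and Cnmd on none, with summed levels of 0.59 and 0.58 untreated and -0.245 and -1.64 with DEM. Of 5 osteoblast markers 3 were tested. Runx2 was well above background on all 4 arrays and did not pass (-0.11 ± 0.25). Bglap (at least 1.27-fold) and Alpl (at least 4.31-fold) were called lower by limma, both well above background on the untreated arrays alone. Sp7 and Ibsp were well above background on no array. Of the skeletal muscle markers Acta1 fell and Myod1, Myog and Ckm were above background on none. Of endothelial markers, Tek was well above background on the untreated arrays alone and was at least 1.23-fold lower (limma adjusted p = 0.0114), Pecam1 was so on 1 array, and Cdh5 and Kdr on none. Of epithelial markers, Krt8 was well above background on all 4 arrays and did not pass (-0.51 ± 0.34), Epcam was so on 1 and Cdh1 and Krt18 on none. The adipocyte markers Pparg (0.23 ± 0.20) and Fabp4 (0.23 ± 0.21) and the macrophage marker Cd68 (0.27 ± 0.24) stood well above background on each of the 4 arrays and did not pass. Adipoq and Plin1 of adipocytes and Ptprc and Adgre1 of macrophages were so on none, and Csf1r on 1. The part of these shifts in the collagen values was not tested.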

How the data were processed

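RNA of 2 untreated and 2 DEM samples was hybridised with Cy3 to a custom Agilent mouse array (500 ng of RNA each, per the labels), and the names of the deposited array files carry 1 slide barcode for all 4 arrays. The deposited intensity values are processed signals, per the file headers from Feature Extraction 10.7.3.1 (protocol GE1_107_Sep09), already background-subtracted. The authors' deposited series table holds log2 values, with column medians of -4.39, -4.35, -4.30 and -4.36, and at least 99.97% of its values, less a constant per array, equal the log2 processed signal to within 0.01. Scale, centring and direction were thereby settled, and that table was an alternative.

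Of 62976 spots per array, 1319 controls were left out, as were 130 probes with an outlier mark. From the log2 signals of each array their 75th percentile (controls excluded) was subtracted. A probe was kept if the software marked it well above background (multiplier 13) on 2 or more of the 4 arrays (31771 probes), and each gene took its brightest kept probe. Of 40545 gene probes, 28084 were named by accession, 4967 by symbol and 1400 by synonym through the RefSeq table of GRCm38.p6 (names only), and 6094 kept the file's name. A further 20632 probes were for noncoding transcripts, and those kept stayed in the fit. Collagen genes were chosen by the file's name. The array annotation gives another build, so its positions are not used.

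The DEM and untreated groups were fitted in limma 3.58.1 under R 4.3.3 (lmFit, eBayes with an intensity trend, two-sided, Benjamini-Hochberg over all genes tested, threshold 0.05), with 2 residual and 4.03 prior degrees of freedom. The script was tested on simulated data. Where neither array of a group was well above background, the text gives a bound, or no size where none could be set, while calls and fitted medians use the fitted values. Alternatives were normexp correction (offset 50), quantile and cyclic loess normalization, a percentile over detected probes, spike-in scaling, no filter, a filter on 4 arrays, the mean of kept probes, no variance trend, a replicate block and leaving out each array. All 40 collagen chain genes are named. Of each other list, up to 4 genes that passed with the smallest p are named, with Serpinh1, P4ha1, P4ha2, Plod2, Lox, Bmp1, Itga11, Ddr2, Mmp13, Mmp14, Tgfb1 and Tgfb2 whatever their result. The genes, lists and rules were chosen with earlier results of these data known.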

Additional observations from a re-analysis of the deposited data

How the results depend on the processing

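No collagen gene that passed here or under an alternative turned its sign there. The authors' table and leaving out DEM replicate 1 changed no collagen call. Against 16 lower and 1 higher collagen gene, normexp correction gave 17 and 2, spike-in scaling 12 and 0 and no filter 18 and 2. The collagen median of -0.91 was -1.25 with quantile and -1.27 with loess normalization. FACIT genes lower numbered 3, or 1 with the mean of kept probes, and basement membrane genes lower numbered 1, or 0 with spike-in scaling and without a variance trend. Of the pathway lists, 16 genes fell and 2 rose; 4 and 0 did with spike-in scaling, 4 rose with normexp and 6 without a filter. Over all genes, 2900 fell and 3812 rose, and spike-in scaling gave 868 and 362. Higher genes numbered 6470 with normexp and 2529 with loess. Without a filter they numbered 17297, with genes at background included, and the median of all genes was 0.47 against 0.16. Ltbp1 turned from 0.29 to -0.89 with the mean of kept probes (limma adjusted p = 0.0262) and Tgfbr3 from -0.07 to 0.46 with normexp (0.0235). The causes were not tested.

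Leaving out 1 array at a time gave 10 to 17 lower and 0 to 1 higher collagen genes, 4 to 7 fibrillar, 0 to 1 basement membrane, 1 to 3 FACIT and 5 to 7 other genes lower, a collagen median of -1.23 to -0.76, 4 to 22 lower and 0 to 6 higher pathway genes, and 802 to 3814 lower and 644 to 4488 higher genes in all (median 0.13 to 0.18). Without an untreated array the spread comes from the wider DEM pair alone, and the lone array is assumed to vary like that pair; these 2 fits gave 10 lower collagen genes each, those without a DEM array 16 and 17. The samples share only a replicate number (correlation of same-numbered deviations 0.084 over all genes tested). With the replicate block 18 collagen genes fell and 1 rose, Col5a1 (limma adjusted p = 0.0297) and Col5a2 (0.0467) being added, 4 pathway genes rose, and 3378 of all genes fell and 4473 rose. Genes near background, such as Col19a1, are limited by their signal.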
